A study of Homo sapiens with 11 samples.

Results

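The comparison described here sets the 2 p53 hotspot mutants against each other on the arginine form of codon 72: 1 library of R273H R72 cells against 3 libraries of R175H R72 cells, 4 of the 11 libraries measured. The cells were H1299, an established human lung carcinoma line that lacks p53 of its own, and every group carried a stably transfected mutant p53 construct (5 µg of DNA, then 14 days in neomycin at 800 µg per ml). The R273H R72 library is replicate 3 and was labelled batch b2. The R175H R72 libraries are replicate 1 of batch b1 and replicates 2 and 4 of batch b2. The same mutants on the proline form, 4 R273H P72 and 3 R175H P72 libraries, gave a second measurement of the hotspot difference. It shared no library with the first, but in the fit used here both rest on 1 batch term, estimated from R175H R72 and R273H P72 libraries. The R175H P72 libraries were all of batch b2. Of R273H P72, replicate 1 was of batch b2 and replicates 2, 3 and 4 of batch b1. On P72 the mutants were thus mostly in different batches, and values there depend strongly on the batch term. The labels give neither the number of clones behind a line nor whether replicates were separate cultures, and cells without a construct or with wild-type p53 were not analysed here, so each value is a difference between mutant lines, and the p-values rest on variation between libraries that could be technical.

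The tumour suppressor p53 is a transcription factor, and cancers often carry one of a few recurrent missense mutations in its DNA-binding domain. R175H is known as a conformational mutant that unfolds the domain locally, while R273H replaces a residue that touches DNA and leaves the fold largely in place. Codon 72 lies in the proline-rich region outside the DNA-binding domain and is a common human polymorphism, so 2 alleles of one hotspot mutant can differ there.

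The 4 R72 libraries held 8346926 to 10440919 estimated counts. Values are TMM-scaled CPM, a gene's counts relative to the library total, and differences are log2 fold changes of R273H over R175H with their standard error (SE), from 1 edgeR fit of all 11 libraries with batch as a term. Because R273H R72 is a single library, its spread was not measured and is assumed to be that of the other groups; the tests below are a description of these libraries. Markers of the carcinoma line summed to 4450 CPM in the R273H R72 library and to between 4500 and 4950 CPM in the R175H R72 libraries, while lists for alveolar, fibroblast, leukocyte, endothelial, squamous and hepatic or kidney cells summed to at most 17 CPM in the 4 R72 libraries. In the R273H R72 library the highest carcinoma line markers were VIM (1280 CPM), AXL (867), CD44 (794) and KRT18 (789). Other members of that list were nearly absent: KRT7, KRT19 and S100A6 reached at most 2.71, 0.36 and 0.48 CPM in the R72 libraries. The alveolar surfactant genes SFTPC, SFTPA1 and SFTPA2 had no count in any R72 library. In such bulk RNA a smaller share of expressing cells and less RNA per cell cannot be told apart.

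On R72, 7 of 16324 genes were called between the hotspots at an adjusted p under 0.05 (0.0429%), 1 higher (0.00613%) and 6 lower (0.0368%) with R273H. On P72, 2376 genes were called in the same fit (14.6%), and 1214 without R175H R72 replicate 1, which helps to set the batch term. At an unadjusted p under 0.05 the counts were 754 on R72 (4.62%) and 4533 on P72 (27.8%). The difference in size was also seen without a test: among 8968 genes averaging at least 10 CPM, 54 differed by more than 1.5-fold on R72 (0.602%) and 790 on P72 (8.81%). The SD of the log2 fold changes over these genes was 0.229 on R72 and 0.351 on P72, although the median SE was larger on R72, at 0.155 against 0.128.

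The contrast in counts was also computed at equal numbers of libraries. In batch b2 alone, where 1 R273H R72 library met 2 R175H R72 libraries, 6 genes were called (0.0373%), beside 866 on P72 with 1 library against 3 (5.38%). In the same batch, 1 R273H P72 library against 2 R175H P72 libraries gave calls for 3.67% of genes without R175H P72 replicate 1, 1.11% without replicate 2 and 5.82% without replicate 4. That alternative was chosen after seeing the data. A difference between counts of calls is not a test, and the test of unequal hotspot effects on the codon 72 forms, whose median SE was 0.215, called 5 genes (0.0306%).

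**Figure D1:**
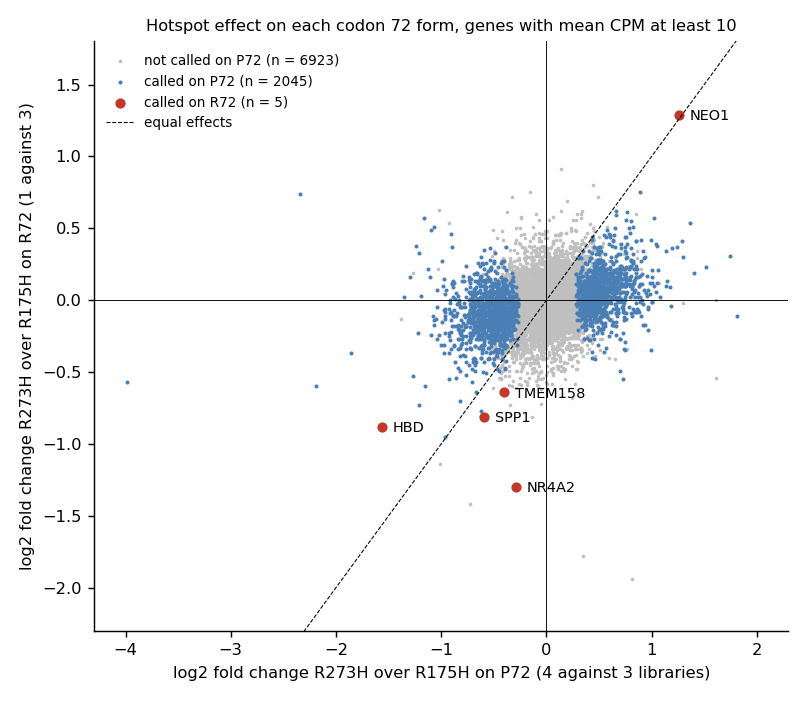
Log2 fold change of R273H over R175H on P72 (horizontal axis) and on R72 (vertical axis) for the 8968 genes averaging at least 10 CPM, blue where called on P72 and red where called on R72, with a dashed line for equal effects. The cloud is wider along the P72 axis (SD 0.351) than along the R72 axis (SD 0.229), and NEO1 lies on the line.

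NEO1 (15:73051710-73305206), which encodes neogenin, a receptor for netrins and repulsive guidance molecules, was the gene called higher with R273H on R72. It was read at 12.7, 14.4 and 11.9 CPM in the R175H R72 libraries and at 32.3 CPM in the R273H R72 library, 2.44-fold higher (log2 1.29, SE 0.18, edgeR adjusted p = 0.00265). The R273H R72 library lay above all 3 others. The effect on P72 was nearly the same size, 1.26 (SE 0.16): R175H P72 libraries lay at 12, 9.37 and 12.7 CPM and R273H P72 libraries at 27.3, 24.6, 24.9 and 28.3 CPM. NEO1 thus separated the 5 R273H libraries from the 6 R175H libraries with no overlap, and it was called in all 10 fits that left out 1 library. The R72 call was lost in the 4 R72 libraries without a batch term (1.31, edgeR adjusted p = 0.11).

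HBD (11:5232678-5243657), the gene of the delta chain of adult haemoglobin, was lower with R273H. The R175H R72 libraries gave 705, 477 and 495 CPM and the R273H R72 library 269 CPM, 1.84-fold lower (log2 -0.88, SE 0.12, edgeR adjusted p = 0.00262). On P72 it fell by 1.56 on the log2 scale (SE 0.09), from 649, 671 and 656 CPM to 232, 322, 295 and 299 CPM. All 5 R273H libraries lay below all 6 R175H libraries. Sequencing read the 3′ ends of RNA, and the labels do not give the 3′ end of the p53 construct. Whether these reads came from the HBD gene itself was not tested. The R72 call was lost without a batch term (-1.05, edgeR adjusted p = 0.354) and in the 4 R72 libraries alone with batch (-0.85, edgeR adjusted p = 0.0637) or without. Of the other erythroid markers, HBA1, HBA2, HBG1, HBG2 and ALAS2 had no count in any R72 library, so no change in them could be seen, and HBB was read at 0.356, 0.101 and 0 CPM in the R175H R72 libraries and at 0 in the R273H R72 library.

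Among secreted and membrane proteins, SPP1 (4:87975650-87983426), which encodes the integrin ligand osteopontin, stood at 97.8, 132 and 106 CPM in R175H R72 and at 67.3 CPM in R273H R72. That is a log2 fold change of -0.81 (SE 0.14, edgeR adjusted p = 0.0199), and on P72 it was -0.59. TMEM158 (3:45224466-45226278), a membrane protein gene first described as induced by Ras, stood at 1150, 1070 and 968 CPM in R175H R72 and at 649 CPM in R273H R72 (-0.64, SE 0.11, edgeR adjusted p = 0.0327), with -0.40 on P72. For both genes the single R273H R72 library lay below every R175H R72 library. NEO1, HBD, SPP1 and TMEM158 were called in the same direction on both codon 72 forms, and the difference of the effects was not called for any of them. Calls for SPP1 and TMEM158 depended on the libraries used: neither was called without R175H R72 replicate 2 or in batch b2 alone, where the values were of the same size (-0.83 and -0.66).

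The remaining called genes were led by a level in the R175H R72 cells that no other group had. NR4A2 (2:156324432-156342348), an orphan nuclear receptor induced early after stimulation, was read at 19.1, 25.7 and 17.2 CPM in R175H R72 and at 8.40 CPM in R273H R72 (-1.30, SE 0.24, edgeR adjusted p = 0.0455). On P72 both mutants lay between 10 and 14 CPM and the difference was -0.29, not called. Its call was lost in batch b2 alone, where the value was -1.36, and in 6 of the 10 fits without 1 library. The difference between the forms was -1.01 with an edgeR adjusted p of 0.24.

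TRPM8 (2:233917398-234019522), a cold and menthol sensing cation channel, was read at 9.14, 8.47 and 9.12 CPM in the R175H R72 libraries, which are 237 counts in all. The R273H R72 library had 10 counts (0.933 CPM). The ratio of R175H to R273H on R72 was 9.52, with an exact 95% counting interval of 5.09 to 20.1, and the log2 fold change was -3.22 (SE 0.47, edgeR adjusted p = 0.00265). On P72 the order was the other way, 0.403 to 1.02 CPM in R175H and 1.59 to 1.99 CPM in R273H (1.16, edgeR adjusted p = 0.0459). TRPM8 was 1 of the 5 genes whose hotspot effect differed between the forms, by -4.38 (SE 0.63, edgeR adjusted p = 0.0101). DESeq2 gave it no adjusted p for this difference. Of the 4 groups, R175H R72 alone lay above 2 CPM.

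PDLIM4 (5:132257671-132273454), which encodes an actin-associated protein with PDZ and LIM domains, had 79, 96 and 70 counts in the R175H R72 libraries and 1 count in the R273H R72 library. The ratio was 98.4, with an exact 95% counting interval from 17.5 to 3900, and the fitted log2 fold change was -6.39 (SE 0.87, edgeR adjusted p = 0.00265). The 7 P72 libraries held 2 counts, both in R273H P72 replicate 3. PDLIM4 reads were thus nearly all in the 3 R175H R72 libraries, and the call was lost without R175H R72 replicate 2. Counting intervals here cover counting error only.

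**Figure D2:**
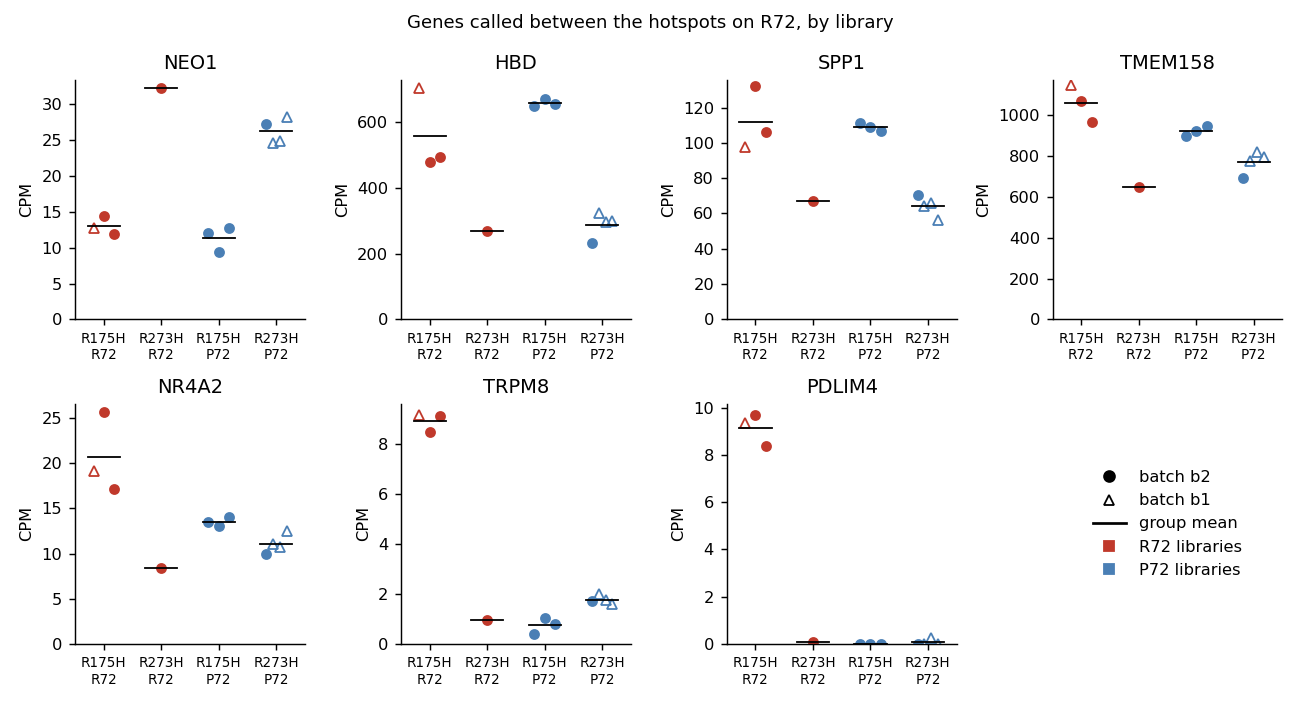
CPM on linear axes from 0 of the 7 genes called on R72, 1 point per library, with triangles for batch b1, circles for b2, red for R72, blue for P72 and a line at each group mean. NEO1, HBD, SPP1 and TMEM158 separate R273H from R175H on both codon 72 forms, while TRPM8 and PDLIM4 stand out in the 3 R175H R72 libraries.

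Below the threshold, the genes of smallest p that lay above all 3 R175H R72 libraries began with DSP, the desmosomal plaque protein desmoplakin. It was read at 87.1, 67.7 and 69.6 CPM against 108 CPM (0.60, SE 0.12, edgeR adjusted p = 0.111). EPHB2, a receptor for ephrin-B ligands, stood at 10.9, 12 and 11.2 CPM against 20.3 CPM (0.80, SE 0.21). RICTOR, a defining subunit of mTORC2, had a log2 fold change of 0.48, and the single-stranded DNA binding subunit gene RPA3 had 0.44. The others by the same rule were TTC14 (0.45), SYTL4 (0.61), PTK7 (0.56), COMMD4 (0.41), MT-ND3 (0.40), PRSS23 (0.39) and TMED1 (0.56). RPA3, TTC14, SYTL4 and PRSS23 were called higher on P72, where their values were 0.43, 0.64, 0.77 and 1.04.

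On the other side, STC1, which encodes the secreted glycoprotein stanniocalcin 1, stood at 309, 331 and 302 CPM in R175H R72 and at 213 CPM in R273H R72 (-0.61, SE 0.13, edgeR adjusted p = 0.208). The homeobox gene PITX1 stood at 35.7, 34.3 and 30.0 CPM against 18.8 CPM (-0.77, SE 0.17). BTG1, an antiproliferative factor, had -0.50, and ERRFI1, a feedback inhibitor of the EGF receptor, had -0.51. BTG1 and PITX1 were called lower on P72 (-0.60 and -0.62). RNU4ATAC, a small RNA of the minor spliceosome, had -0.65. CBWD3 (-1.78) has near-identical copies and TEN1 (-0.81) overlaps other genes, so these values are uncertain. CBWD3 was called in batch b2 alone (-1.95, edgeR adjusted p = 0.00556) and in 10 of 27 alternative settings.

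A further question was how genes called between the hotspots on P72 behaved in the 4 R72 libraries. Of 916 genes called higher on P72 and averaging at least 10 CPM, 629 (68.7%) were also higher with R273H on R72, beside 44.3% of all 8968 genes. Their median log2 fold change was 0.52 on P72, which chose them, and 0.07 on R72. Of 1129 genes called lower on P72, 840 (74.4%) were also lower on R72, beside 55.7% of all genes, with medians of -0.52 and -0.09. The median of all 8968 genes on R72 was -0.02.

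The direction was mostly shared. The P72 medians are raised by the choice of called genes, so the sizes are not compared here. Of the 4 genes called on both forms, NEO1, SPP1 and TMEM158 had the larger value on R72 and HBD on P72. These 4 were chosen by a call on R72 as well, which favours large values there, so their sizes cannot be compared either. The R273H R72 library lay above all 3 R175H R72 libraries for 41.9% of the genes called higher on P72, against 18.9% of all genes, and below all 3 for 46.1% of those called lower, against 25% of all genes. Within batch b2, where the 2 comparisons share neither a library nor a batch term, 255 of 362 genes called higher on P72 (70.4%) and 328 of 415 called lower (79%) kept their direction on R72, beside 43.9% of all genes higher and 56.1% lower, with medians of 0.09 and -0.12. Across genes, the Pearson correlation of the 2 effects was 0.18 and the Spearman correlation 0.31 over 8968 genes, which share libraries and are not independent.

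**Figure D3:**
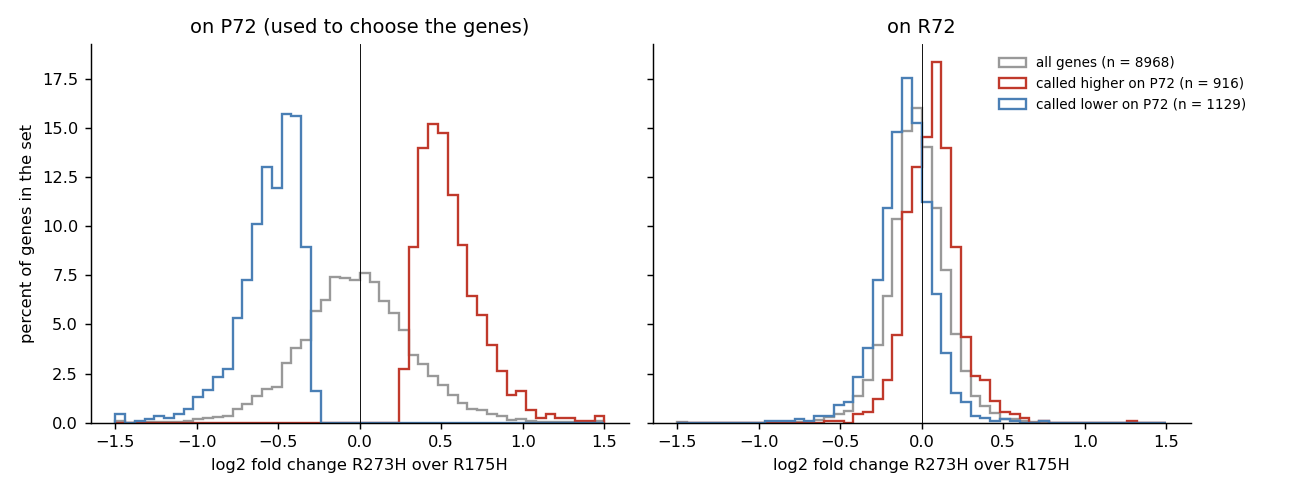
Percent of genes per bin of log2 fold change on P72 (left) and on R72 (right) for all 8968 genes (grey), 916 genes called higher on P72 (red) and 1129 called lower (blue); values beyond 1.5 are drawn in the end bins. The red and blue sets sit at medians of 0.52 and -0.52 on P72 by their choice, and at 0.07 and -0.09 on R72.

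Genes with the largest P72 effects were picked after their values were seen. CYR61, a matricellular protein gene driven by YAP, had 1.81 on P72 and -0.11 (SE 0.33) on R72. Its R175H R72 libraries gave 326 CPM in batch b1 and 1000 and 1020 CPM in b2, against 870 CPM in R273H R72, so the batches differed more than the mutants. The hyaluronidase gene TMEM2 had 1.36 and 0.54, MT-ND6 1.74 and 0.31, and ADM, which encodes adrenomedullin, 1.4 and 0.19. Among genes lower with R273H on P72, the uridine phosphorylase gene UPP1 had -1.35 on P72 and 0.02 (SE 0.26) on R72, and CRIP2 had -1.30 and 0.16. The glycosyltransferase gene MGAT5B had -1.27 and -0.53. LRRC37B had -1.24 and 0.38, and the ribosomal protein gene RPL28 -2.34 and 0.74, both with near-identical sequences elsewhere in the genome that counting could split. The difference of effects was not called for any of these 9 genes.

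Besides TRPM8, 4 genes were called for unequal hotspot effects, and in each the P72 value was the larger. MAF1, a repressor of RNA polymerase III, had 0.10 on R72 and -0.98 on P72 (difference 1.08, edgeR adjusted p = 0.032). TUBA1B, an alpha tubulin gene, had -0.01 on R72 and 1.00 on P72 (-1.01, edgeR adjusted p = 0.0384). SNHG25, a small nucleolar RNA host gene, had -0.05 and -1.04 (0.98, edgeR adjusted p = 0.032). SMIM11B had -0.55 and 0.73 (-1.28, edgeR adjusted p = 0.0432). In R72 cells, MAF1 was read at 91.0, 58.0 and 62.9 CPM with R175H and at 66.4 CPM with R273H. TUBA1B was read at 876, 1130 and 1120 CPM with R175H and at 1130 CPM with R273H. The R273H R72 library thus lay within the R175H R72 range or at its edge for both. In batch b2 alone the differences were about as large (1.038, -1.034, 0.955 and -1.255 in the same order) with edgeR adjusted p from 0.0513 to 0.0911. None of these 4 was called there or with the GC correction, and none without R175H R72 replicate 2 or replicate 4. Without a batch term the differences were smaller, at 0.522, -0.581, 0.438 and -1.058 in the same order, so their sizes depended on that term. MAF1 overlaps SHARPIN on the opposite strand, and SMIM11B has a near-identical copy.

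The pathways were described with 29 gene lists, of which 2 members were called on R72, NEO1 and TRPM8. Immediate early genes encode transcription factors and feedback regulators that growth factor signalling turns on within minutes. On R72, 23 of 27 tested members were lower with R273H and 4 higher, and the median was -0.23 beside 0.00 for all tested genes. None was called, and at an unadjusted p under 0.05 7 were lower (2.37% of all genes were) and 1 was higher, KLF10 (0.48), named after its value was seen. DUSP1, a phosphatase that switches off MAP kinases, stood at 23.9, 25.0 and 26.8 CPM in R175H R72 and at 13.9 CPM in R273H R72 (-0.95, SE 0.25, edgeR adjusted p = 0.865). HBEGF, an EGF receptor ligand, had 36.0, 39.0 and 47.5 CPM against 25.6 CPM (-0.68, SE 0.21). DUSP5, a nuclear phosphatase of ERK, had -0.51 and the AP-1 subunit JUN -0.31. In all 4 genes the R273H R72 library lay below every R175H R72 library, but they were chosen by small p, which favours such values. Of the 27 tested members, 10 lay below all 3 R175H R72 libraries and 3 above. Among all genes averaging at least 10 CPM, 25% lay below and 18.9% above. On P72 the list had a median of 0.11, with 5 members called higher (6.95% of all genes were) and 1 lower, DUSP1 (-0.96). The sign on P72 was not stable: without a batch term the medians were -0.14 on R72 and -0.12 on P72, and in batch b2 alone -0.20 and 0.06.

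The integrated stress response slows translation initiation and induces ATF4 targets, which include the phosphatase cofactor PPP1R15A that ends it. Of 35 tested members of the stress and unfolded protein list, 30 were lower with R273H on R72, with a median of -0.16. Of these members, 9 had an unadjusted p under 0.05, all lower (2.37% of all genes were). PPP1R15A stood at 131, 122 and 135 CPM in R175H R72 and at 91.7 CPM in R273H R72 (-0.49, SE 0.12, edgeR adjusted p = 0.718). DDIT4, an inhibitor of mTORC1, had -0.36, DDIT3, which encodes CHOP, -0.41, and the leucine sensor gene SESN2 -0.35. P72 gave a similar median, -0.13, with 14 members called lower (7.6% of all genes were) and 6 higher (6.95% of all genes were). PPP1R15A, DDIT4, DDIT3 and SESN2 were among those called lower there (-0.45, -0.57, -0.42 and -0.61).

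DUSP1 and PPP1R15A, which had about the same negative effect on both codon 72 forms, are shown with the 250 bases before their RefSeq start (GRCh38.p14), because both windows hold a cAMP response element and a TATA box. Capitals mark TGACGTCA, TATAAA and the GC box GGGCGG, searched on both strands; in DUSP1 a GC box directly adjoins the element, without overlap. The windows are chr5:172771196-172771445 on the minus strand and chr19:48872171-48872420 on the plus strand.
DUSP1: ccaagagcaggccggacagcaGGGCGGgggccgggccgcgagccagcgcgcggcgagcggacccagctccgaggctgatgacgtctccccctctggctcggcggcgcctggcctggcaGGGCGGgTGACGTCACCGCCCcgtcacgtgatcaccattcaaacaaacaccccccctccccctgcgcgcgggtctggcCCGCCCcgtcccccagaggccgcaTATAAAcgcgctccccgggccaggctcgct
PPP1R15A: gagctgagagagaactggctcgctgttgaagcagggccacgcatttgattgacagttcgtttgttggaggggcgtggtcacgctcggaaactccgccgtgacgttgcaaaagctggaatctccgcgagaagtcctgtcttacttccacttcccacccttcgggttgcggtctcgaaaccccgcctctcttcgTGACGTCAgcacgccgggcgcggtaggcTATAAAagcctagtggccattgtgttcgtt
The response element begins 125 bases before the start in DUSP1 and 58 in PPP1R15A, and the TATA box 30 bases before it in both. TGACGTCA was found in 1.65% of 35114 promoter windows of this length, TATAAA in 10.7% and GGGCGG in 42.6%. Of 21 immediate early genes with a window, 2 held TGACGTCA, DUSP1 and JUND. These are letter matches and do not show binding.

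Of the lists that were higher, the 13 mitochondrially encoded mRNAs were all higher with R273H on R72, with a median of 0.28. Their median on P72 was 0.37. MT-ND3, a complex I subunit, was read at 1770, 2200 and 2290 CPM in R175H R72 and at 2810 CPM in R273H R72 (0.40, SE 0.13). MT-CO3, of cytochrome oxidase, had 0.34 and MT-ATP6, of ATP synthase, 0.38. None of the 13 was called on R72, while 6 were called higher on P72 (6.95% of all genes were). The lowest R175H R72 value for MT-ND3 was that of the batch b1 library, and within batch b2 the list median was 0.18 on both forms. Mitochondrial genes took 5.52% of counts in the R273H R72 library and 4.23%, 5.00% and 5.24% in the R175H R72 libraries. Nuclear subunits did not share the shift: the 37 genes of complex I had a median of -0.04 on R72 and the 38 of complexes II to V a median of 0.00.

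Of 37 DNA replication genes, 34 were higher with R273H on R72, with a median of 0.13, while the median on P72 was 0.38 with 15 called higher (6.95% of all genes were). The sliding clamp gene PCNA stood at 26.2, 52.6 and 49.9 CPM in R175H R72 and at 65.2 CPM in R273H R72 (0.44, SE 0.19), and thymidylate synthase, TYMS, had 0.30. Within batch b2 the R72 median was 0.07. The 32 mitosis genes had a median of 0.00 on R72 and 0.19 on P72. In MHC class I presentation, 16 of 18 members were higher on R72, with a median of 0.12 and no call, beside 0.27 and 7 called higher on P72 (6.95% of all genes).

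The guidance list, which holds NEO1, had 24 of 33 members higher on R72 and a median of 0.22, close to 0.27 on P72. The plexin genes PLXNA1 (0.31) and PLXNB2 (0.37), which encode semaphorin receptors, and the ephrin receptor gene EPHB2 (0.80) had positive values but were not called, with PLXNB2 and EPHB2 above all 3 R175H R72 libraries. PLXNA1 was read at 127, 97.3 and 94.1 CPM against 121 CPM, so it lay within the R175H R72 range before the batch term. Epithelial markers had a median of 0.23 on R72, with 12 of 15 higher, and -0.05 on P72 (0.05 without a batch term). The members of smallest p were DSP, the junction receptor CXADR (0.34), the desmosomal cadherin DSG2 (0.29) and the tight junction gene CLDN1. CLDN1 had -0.55 (129, 177 and 150 CPM against 109 CPM), and the largest value in the list was 0.74. The mesenchymal list had a median of -0.08.

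Metabolic lists with a shift on P72 lay near 0 on R72. Of 30 mevalonate and sterol synthesis genes, 16 were called higher on P72 (6.95% of all genes were) and none on R72 (0.00613%), and the medians were 0.35 and 0.01. For 9 of them the difference between the forms had an unadjusted p under 0.05, each with the lower value on R72 (5.11% of all genes), though none was called. The 78 cytosolic ribosomal protein genes had a median of -0.24 on P72, with 25 called lower (7.6% of all genes were), and of -0.04 on R72, with none called (0.0368%). With so few calls on R72, a list without one is at the background.

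**Figure D4:**
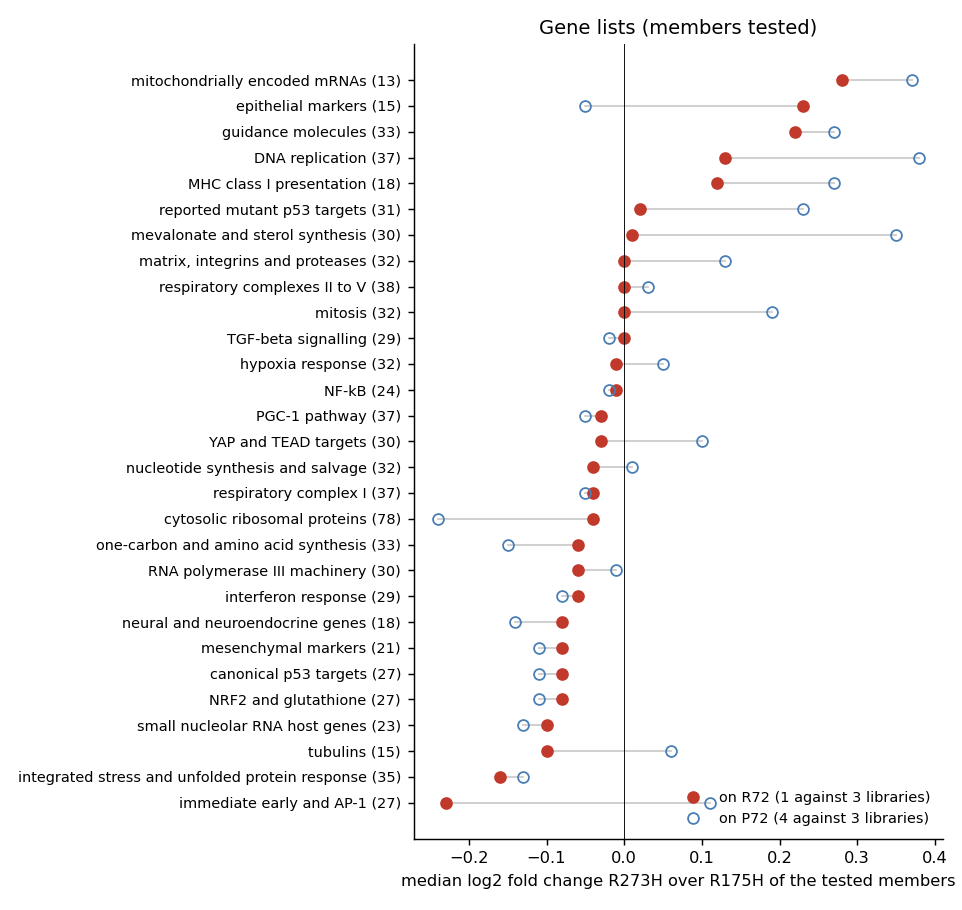
Median log2 fold change of R273H over R175H for 29 gene lists, with the number of tested members in brackets, on R72 (filled) and on P72 (open). Immediate early genes are lowest on R72 at -0.23 and their P72 median of 0.11 becomes -0.12 without a batch term, while mevalonate genes lie at 0.01 on R72 and 0.35 on P72.

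No member of the lists chosen for p53 biology was called on R72. Of 27 canonical targets of wild-type p53, 17 were lower with R273H, with a median of -0.08. The cell cycle inhibitor gene CDKN1A stood at 31.4, 25.0 and 27.7 CPM against 21.0 CPM (-0.34, SE 0.16). Of 31 genes reported in the literature as targets of mutant p53, 20 were higher on R72, with a median of 0.02. The cyclin gene CCNE2 had 0.93 (SE 0.36), at 1.66, 2.32 and 3.48 CPM against 5.32 CPM. The same list had a median of 0.23 on P72 with 8 members called higher (6.95% of all genes were) and 3 lower (7.6%).

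PPARGC1A, which encodes the mitochondrial coactivator PGC-1α named in the title of the series, was read at 3.44, 3.93 and 2.64 CPM in R175H R72 and at 4.57 CPM in R273H R72. The R273H R72 library lay above the others, but the difference, 0.49 (SE 0.35), was not called, and the P72 value was -0.38. The 37 tested genes of its pathway had a median of -0.03 on R72, with 17 higher and 20 lower. The mitochondrial RNA polymerase gene POLRMT (-0.37) and the transcription factor gene MEF2D (-0.40) were lower at an unadjusted p under 0.05.

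**Figure D5:**
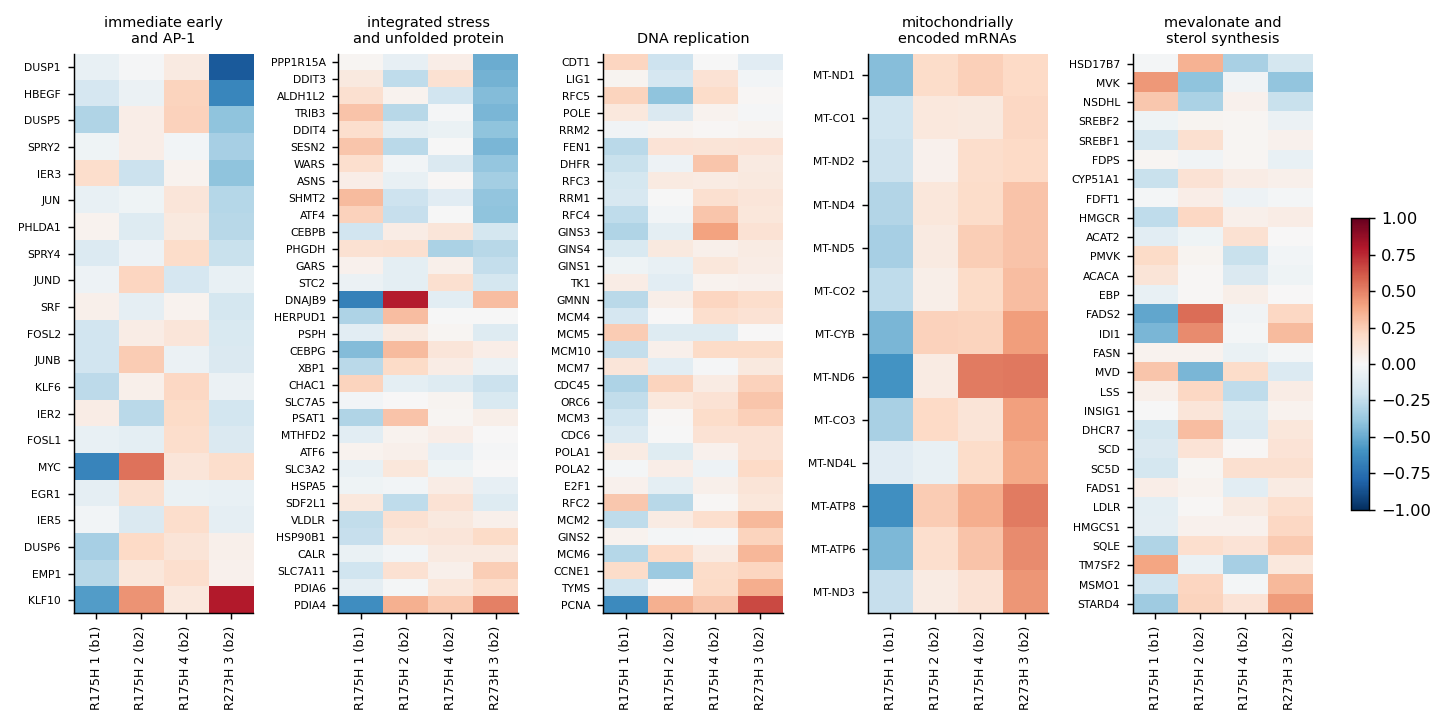
Members of 5 lists averaging at least 10 CPM over the R72 libraries, in the 3 R175H R72 libraries and the R273H R72 library, coloured by log2(CPM + 0.5) minus the mean of the R175H R72 libraries, with the colour scale ending at 1 in each direction. One member not reported here is left out. The R273H column is mostly blue for immediate early and stress genes and red for mitochondrial mRNAs, and the batch b1 library is itself blue for mitochondrial mRNAs.

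The other lists had medians between -0.10 and 0.00 on R72 with at most 4 members at an unadjusted p under 0.05 in 1 direction. Among matrix and integrin genes, the membrane protease MMP14 stood at 380, 395 and 372 CPM against 279 CPM (-0.41, SE 0.12) and was called lower on P72 with -0.42. The integrin genes ITGAV and ITGB3 had 0.42 and -0.99, and TNC, the gene of the matrix protein tenascin C, had -0.86. The TNC value was unstable, from -1.12 to -0.11 over 26 alternative settings. Among hypoxia genes the glucose transporter gene SLC2A3 had -0.40, HK2 of glycolysis -0.42 and the collagen lysyl hydroxylase gene PLOD1 0.42. In the neural list, which holds TRPM8, the calcium-binding protein gene CALB2 stood at 22.2, 17.2 and 16.8 CPM against 10.4 CPM (-0.73, SE 0.21) and was called lower on P72 (-1.21).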

How the data were processed

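RNA of H1299 cells was sequenced as single 75 bp 3′ tags (Lexogen QuantSeq), per the labels' protocols. The authors deposited estimated counts per gene, which were whole numbers. Per the submitters' processing notes the tools were Bowtie2, RSEM 1.2.12 and DESeq2 with build hg38, in no stated order. Strand use in counting is not stated there. Groups and batch came from the labels.

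Of 45965 genes, 16324 passed filterByExpr (minimum count 10, minimum total 15). edgeR 4.0.16 in R 4.3.3 fitted 4 groups and batch over all 11 libraries (TMM, robust quasi-likelihood, 6 residual degrees of freedom), with Benjamini-Hochberg adjustment over all genes and a threshold of 0.05. An SE is the log2 fold change divided by the square root of F. Library totals were 8346926 to 12829560. The batch term was called for 1504 genes. Counting noise was exceeded in all 12 replicate pairs (chi-square over its degrees of freedom 4.01 to 18.3).

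Named genes are those called on R72, filled up to 12 in each direction with the genes of smallest p (mean of at least 10 CPM, outside the R175H R72 range), PPARGC1A, TRPM8, genes called for the difference, and up to 4 members of smallest p per list, reported where p was under 0.05. A few genes it selected are left unreported. The comparison, lists and tests were chosen with earlier results of these data known. Coordinates are 1-based, from GENCODE 29 (hg38). Alternatives were DESeq2 1.42.0, limma-voom (limma 3.58.1), other scalings and filters, no batch term, a replicate block, batch b2 alone, a GC correction (spline of 5 degrees of freedom on the last 500 nt) and leaving out each library. The procedure was tested on simulated data.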

Additional observations from a re-analysis of the deposited data

Results flagged for a closer look

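In the 4 R273H P72 libraries, 32 genes were tested for a value far from the rest. A far value was found in 2, and chance gives about 1 in 20. All these tests used the same 4 libraries. EPHB2 was read at 13.8 CPM in R273H P72 replicate 4, while the other 3 R273H P72 libraries lay between 17.5 and 18.1 CPM. PDLIM4 was read at 0.231 CPM in R273H P72 replicate 3, which is 2 counts, and at 0 in the other 3, so any count there would have been flagged. Both lie outside the R72 libraries. Groups of 3 and the single R273H R72 library could not be examined this way.

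By the edgeR test of the difference itself, the hotspot effect on R72 minus that on P72 was -4.38 for TRPM8, 1.08 for MAF1, -1.01 for TUBA1B, -1.28 for SMIM11B and 0.98 for SNHG25, on the log2 scale. For TRPM8 the level in the R175H R72 libraries (8.47 to 9.14 CPM) set the value, and for the other 4 genes the larger effect was on P72. Without R175H R72 replicate 2 no gene was called for the difference at all, and TRPM8 was called in 9 of the 10 fits without 1 library.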

How the results depend on the processing

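The 7 calls on R72 became 14 with DESeq2, 16 with no filter, 3 without a batch term and 3 in the 4 R72 libraries without batch, and 2 with a filter of 10 CPM in 3 libraries. Leaving out 1 library gave 3 to 9, the lowest without R175H R72 replicate 2. The log2 fold changes were steadier than the calls: NEO1 stayed between 1.19 and 1.38 and HBD between -1.05 and -0.78 over 27 settings. NEO1 was called in 24, HBD in 22, SPP1 in 15, TMEM158 in 10 and NR4A2 in 8 of these, TRPM8 in 24 and PDLIM4 in 22 of 26. Calls on P72 (2376) were 866 in batch b2 alone, 603 there with the GC correction, 590 there as the median of the 3 choices of 2 R175H P72 libraries, and 1214 to 2370 without 1 library, with 1214 without R175H R72 replicate 1 and 1253 without R273H P72 replicate 1. The 5 calls for the difference became 138 with DESeq2 (4 of the 5 among them; TRPM8 got no adjusted p), 196 with no filter, 12 with limma-voom, 1 without a batch term, 1 with the GC correction, 11 in batch b2 as the same median, and 0 to 48 without 1 library, so this count rests on single libraries. The 2 called list members were 4 with no filter, 1 with the 10 CPM filter, 1 in the 4 R72 libraries without batch and 2 to 3 without 1 library. The cause of these shifts was not tested. The count outside the R175H R72 range was 7442 genes, and 9859 to 10883 without 1 library. A range of fewer libraries is narrower, so a rise of this kind follows from the design. A library no different from the others would also lie outside for many genes, so this count does not measure a hotspot difference.

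The groups compared on R72 share no replicate number, and same-numbered libraries of the other groups did not deviate together (correlations -0.252 to 0.191 over 8 pairs, 2 above 0.1), so the numbers do not pair libraries. A ninth pair, R175H R72 replicate 1 and R273H P72 replicate 1, was left out because the batch term ties their residuals to each other. With the replicate block 2 genes were called on R72, 2 for the difference and 0 list members, with no R72 call in common with the 7. With the GC correction and the replicate block the counts were 2, 2 and 0, and 1521 on P72.

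Small R72 values changed sign, none of them called. TUBA1B gave 0.010 with the GC correction in batch b2, 0.006 in batch b2, 0.006, 0.013 and 0.007 there without R175H P72 replicate 1, 2 or 4, 0.017 with the 10 CPM filter, 0.024 with library totals, 0.123 without a batch term, 0.013 and 0.124 in the 4 R72 libraries with and without batch, and -0.037 to 0.012 without 1 library. Without a batch term, in all libraries and in the 4 R72 libraries, the values were -0.087 and -0.086 for MAF1, 0.150 and 0.151 for CYR61, -0.147 and -0.146 for CRIP2, and -0.181 and -0.181 for UPP1. With the replicate block, without and with the GC correction, they were -0.055 and -0.037 for MAF1, 0.032 and 0.028 for CYR61, -0.117 and -0.137 for ADM, and -0.241 and -0.262 for UPP1. Without 1 library, UPP1 gave -0.147 to 0.159 and CRIP2 -0.079 to 0.309. Of 2437 single gene values over 27 settings, these 33 changed sign.

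With 1 R273H R72 library, its own spread is unknown, and a gene that did not pass is not shown to be equal.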

Other observations

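Genes lower with R273H on R72 outside the immediate early and stress lists included other regulators and secreted factors. GADD45B, a stress-induced signalling regulator, stood at 74.8, 90.6 and 102 CPM in R175H R72 and at 75.5 CPM in R273H R72 (-0.35, SE 0.14), which overlaps the R175H R72 range. TGFB1, the gene of the cytokine TGF-β1, stood at 44.7, 49.8 and 38.6 CPM against 31.9 CPM (-0.42, SE 0.18). Its induced feedback gene PMEPA1 stood at 43.2, 43.7 and 37.4 CPM against 32.6 CPM (-0.34, SE 0.16). The neurotrophin gene BDNF had -0.40 on R72 and 0.43 on P72. The amino acid enzyme genes GOT1, ASNS and SHMT2 had -0.37, -0.28 and -0.28, and on P72 -0.15, -0.19 and -0.92. None was called on R72 by edgeR.

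F3, which encodes tissue factor, the initiator of blood coagulation, was read at 1.78, 2.82 and 2.88 CPM in R175H R72 and at 4.95 CPM in R273H R72 (0.85, SE 0.36). It was not called on R72 and was called higher on P72 with 1.33.

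The trend of log2 CPM with GC content at the 3′ end had a slope, per 10% of GC, of -0.0807 in the R273H R72 library and -0.0854 and -0.0514 in the R175H R72 libraries of the same batch. The slope was 0.0715 in the R175H R72 library of batch b1. On P72 the mutants differed in slope within batch b2. R175H P72 libraries had 0.00558, 0.026 and 0.0206, and R273H P72 replicate 1 had -0.057. The R273H P72 libraries of batch b1 had 0.0431 to 0.059. With the GC correction 2100 genes were called on P72, beside 2376 without it. The cause of the slopes was not tested.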
